A study of Mus musculus with 12 samples.

Results

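The 10 transcription factors described here, Foxp1, Foxp2, Bcl11b, Meis2, Rarb, Isl1, Ebf1, Zfp521, Sp9 and Tshz1, are known for setting or marking the identity of the spiny projection neurons of the striatum. They were chosen by gene symbol, as the rows of the deposited count table that carry these names, with earlier results of these data known. Each symbol matched 1 of the 57132 features in the table, and all 10 were among the 13902 features that passed the filter on low counts. The libraries came from the striatum, in a slice from which the cortex was removed, of C57Bl/6 mice aged 10 months. By their labels, 6 libraries were from mice with a knockout of trace amine-associated receptor 5 (TAAR5-KO) and 6 were from wild-type (WT) littermates. Both sexes were used in each genotype, and no label ties a column to a sex or to an animal, so p-values measure the spread between these libraries.

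Spiny projection neurons are the GABAergic output cells of the striatum and make up most of its neurons. They arise in the lateral ganglionic eminence of the embryonic brain, where homeobox and zinc finger factors start a program that is partly kept for life. Direct pathway neurons carry the D1 dopamine receptor and project to the substantia nigra, whereas indirect pathway neurons carry the D2 receptor and project to the globus pallidus. Bcl11b, Foxp1 and Meis2 are found in both kinds, Isl1 and Ebf1 act on the direct pathway side, and Sp9 is needed for indirect pathway neurons.

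Total counts ran from 11269915 to 34824450 per library, of which 64.3% to 88.1% fell on ribosomal RNA, which left 1819907 to 6399188 counts for all other features. Taar5 itself had 1 to 6 counts in the libraries labelled TAAR5-KO and 0 to 2 in those labelled WT, which goes against the labels. Which part of the gene the allele removes is not given in the sources used here, so directions below are given by label. Levels are CPM, counts relative to a library size that was scaled by the trimmed mean of M-values (TMM). The library NK11, labelled WT, stood apart. It was the lowest of the 12 libraries for 6 of the 10 factors and the lowest of the WT libraries for 8, and its summed level of the 10 was 114.1 CPM against 151.5 to 201.2 CPM in the other libraries. The same library held 56.1 CPM of summed pituitary markers. NK10 and NK12, also labelled WT, held 17.4 and 14.03 CPM, NK5, labelled TAAR5-KO, held 5.80 CPM, and the other 8 libraries held 0.313 to 1.42 CPM. Their part in the results was not tested, and values without these WT libraries are given beside the factors. Those fits were chosen after seeing the data, kept NK5 and had fewer WT libraries. They called 52 of all features without NK11 and NK12, and 15 without NK10 as well, against 229 with all 12 libraries.

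The promoter windows of the Foxp1 and Rarb genes are shown because Foxp1 came closest to the calling threshold and because the Rarb window holds a direct repeat. The sequences are from RefSeq on GRCm38.p6 and run from 250 bases before to 50 bases after a start site, 5' to 3' on the minus strand. Of the 10 factors, 7 had such a window. The 3 Foxp1 windows lie at chr6:99520944-99521243, chr6:99266466-99266765 and chr6:99028249-99028548, and the Rarb window lies at chr14:16575427-16575726. Capitals mark matches on either strand to the forkhead motif (TGTTTAC or TGTTTAT), the MEIS motif (TGACAG), the EBF motif (CCCNNGGGA), the GC box (GGGCGG), or the direct repeat of retinoic acid receptors, which was searched as GGTTCA and AGTTCA or AGGTCA and AGGTCA with 5 bases between them.
Foxp1 window 1: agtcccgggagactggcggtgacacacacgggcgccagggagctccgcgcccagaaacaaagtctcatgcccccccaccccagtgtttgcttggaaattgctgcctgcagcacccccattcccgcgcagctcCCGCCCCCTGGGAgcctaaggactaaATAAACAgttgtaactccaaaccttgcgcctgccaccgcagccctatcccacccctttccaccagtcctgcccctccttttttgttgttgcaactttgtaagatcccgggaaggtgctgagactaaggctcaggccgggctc
Foxp1 window 2: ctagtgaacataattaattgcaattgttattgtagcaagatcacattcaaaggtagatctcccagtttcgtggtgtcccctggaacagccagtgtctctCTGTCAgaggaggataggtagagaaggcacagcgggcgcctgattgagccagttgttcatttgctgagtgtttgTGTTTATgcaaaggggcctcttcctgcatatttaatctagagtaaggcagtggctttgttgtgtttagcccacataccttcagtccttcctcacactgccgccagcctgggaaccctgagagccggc
Foxp1 window 3: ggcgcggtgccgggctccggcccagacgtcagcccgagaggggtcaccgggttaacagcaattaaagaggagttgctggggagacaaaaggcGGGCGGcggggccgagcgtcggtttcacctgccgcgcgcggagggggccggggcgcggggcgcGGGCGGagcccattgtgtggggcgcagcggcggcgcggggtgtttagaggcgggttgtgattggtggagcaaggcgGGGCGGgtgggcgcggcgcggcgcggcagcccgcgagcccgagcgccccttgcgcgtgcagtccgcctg
Rarb window: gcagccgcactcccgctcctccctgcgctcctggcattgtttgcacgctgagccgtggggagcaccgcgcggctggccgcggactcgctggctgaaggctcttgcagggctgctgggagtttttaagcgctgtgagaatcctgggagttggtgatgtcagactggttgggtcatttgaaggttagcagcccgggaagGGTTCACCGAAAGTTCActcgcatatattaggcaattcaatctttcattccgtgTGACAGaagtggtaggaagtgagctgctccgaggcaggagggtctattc
In the Foxp1 windows, the first held a forkhead match together with a GC box that overlaps an EBF match, the second held a MEIS and a forkhead match, and the third held 3 GC boxes. The direct repeat, in the forms searched, was present in 5 of all 32851 windows (0.0152%), and the Rarb window, which also held a MEIS match, was 1 of them. The form with GGTTCA and AGTTCA has the letters of the Rarb window, so the match there carries no support of its own. The share holds for these exact letters and not for looser forms of the repeat. The other motifs are shorter and were common, with the forkhead motif in 7.97% of all windows, MEIS in 19.2%, EBF in 6.56% and the GC box in 35.7%. Among the remaining windows, Sp9 held a GC box, and the windows of Meis2, Ebf1, Bcl11b and Isl1 held no match. A match is a stretch of letters and was not tested for binding.

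The question put to the counts was whether these factors differed between the striatum of the 2 genotypes. None of the 10 passed the Benjamini–Hochberg adjusted threshold of 0.1 in the likelihood ratio test of edgeR, where 1.65% of all features tested were called. The quasi-likelihood test of edgeR called 0.453% of all features and none of the 10, and DESeq2 called 1.27% and 1 of the 10, Foxp1. DESeq2 gave no adjusted p for 7009 of the features, Rarb and Isl1 among them. These could not be called, so its share of 1.27% is lower than that among features with an adjusted p. At an unadjusted p under 0.05, 5 of the 10 passed against 11.9% of all features. Of these 5, Foxp1, Bcl11b, Meis2 and Rarb were on the higher side in the TAAR5-KO libraries (6.38% of all features) and Tshz1 was on the lower side (5.54%). The log2 fold change was above 0 for 8 of the 10, against 48.9% of all features, and its median was 0.26 against -0.0061. Because of how the factors were chosen, these counts carry no test of their own.

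**Figure D1:**
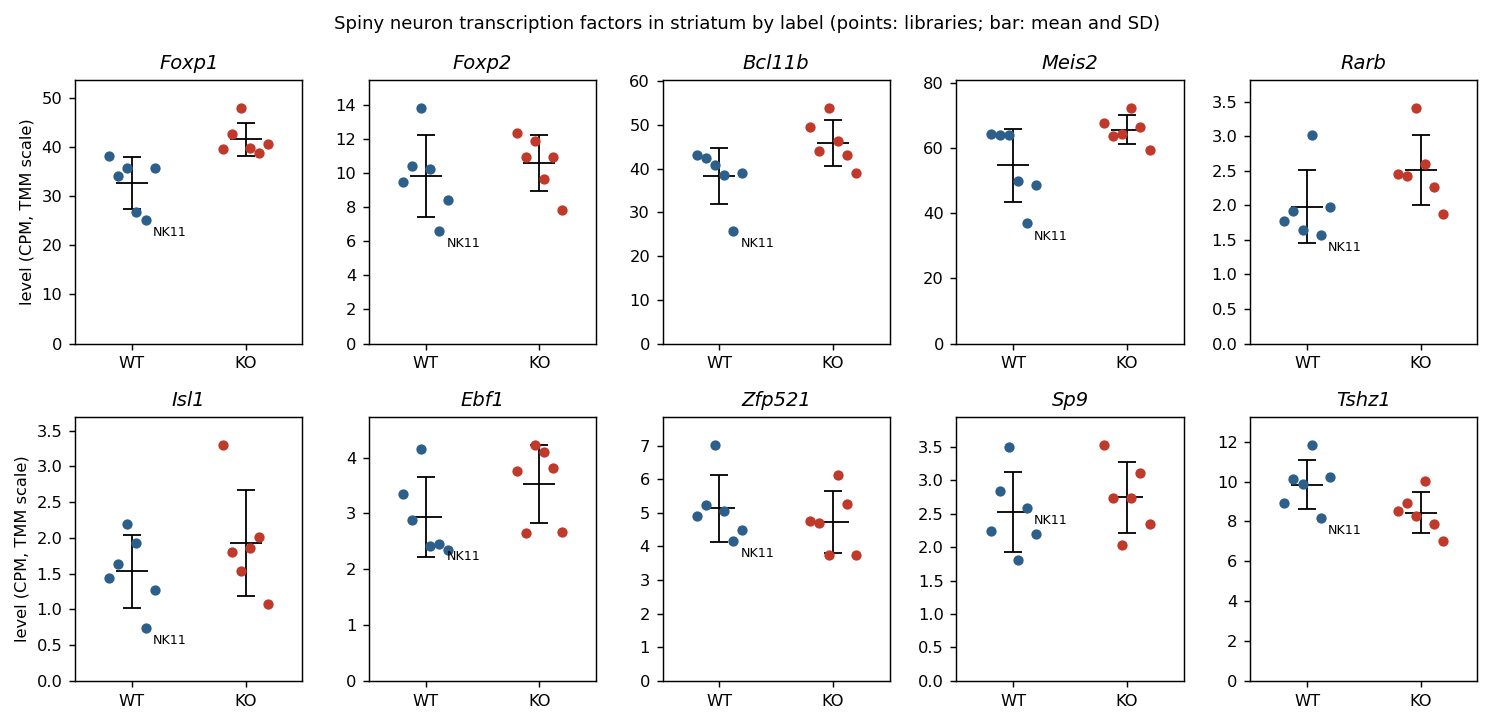
Level of each factor in CPM on TMM library sizes (linear axis from 0) in the 6 libraries labelled WT and the 6 labelled KO, with the mean and SD of each group; NK11 is named. Foxp1 is the only panel in which all KO points (38.8 to 47.9 CPM) lie above all WT points (25.2 to 38.1 CPM).

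Foxp1 and Foxp2 are forkhead repressors that can bind DNA as dimers with each other, and Foxp2 is best known from an inherited human speech disorder. Foxp1 (ENSMUSG00000030067.18, GRCm39 chr6:98902299-99499682, minus strand) ran from 38.8 to 47.9 CPM in the TAAR5-KO libraries, with a median of 40.2. In the WT libraries it ran from 25.2 to 38.1 CPM, with a median of 34.9. The 6 TAAR5-KO libraries were therefore all above the 6 WT libraries, a separation in this direction seen for 0.619% of all features and for no other of the 10 factors. The means were 41.6 ± 3.37 and 32.6 ± 5.33 CPM (SD, n = 6 each). The log2 fold change of Foxp1 was 0.34 ± 0.11 (SE), a 1.27-fold higher mean level, with an adjusted p of 0.103 in the likelihood ratio test of edgeR, so it missed the threshold of 0.1. Of all features tested, 237 had a smaller p. The call turned on small choices: adjusted p was 0.0546 in DESeq2 and 0.188 in the quasi-likelihood test. Among the 12 fits that left out 1 library each, 4 called Foxp1 (without NK4, NK5, NK7 or NK9), and the adjusted p was 0.296 without NK11. All features called in those 4 fits numbered 415, 291, 102 and 330, in that order, against 229 with all libraries. Without NK10, NK11 and NK12 the log2 fold change was 0.20 (adjusted p = 0.762, likelihood ratio test of edgeR). NK11 and NK10 held the lowest WT values of Foxp1, 25.19 and 26.65 CPM, so leaving them out raises the WT mean.

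**Figure D2:**
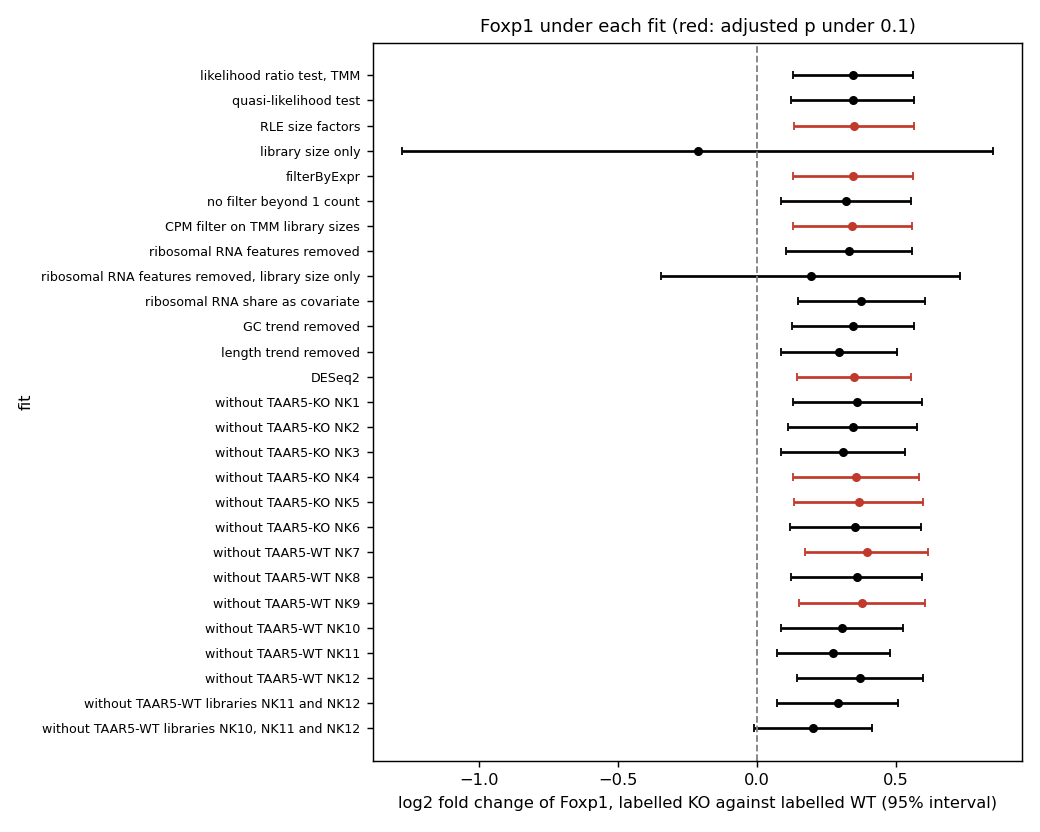
Log2 fold change of Foxp1 in TAAR5-KO against WT libraries with its 95% interval under each fit (rows), red where the adjusted p was under 0.1. The point is at 0.34 in the likelihood ratio test with TMM scaling and between 0.19 and 0.39 in all other fits except that with unscaled library sizes, where it is at -0.21.

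Foxp2 (GRCm39 chr6:14901348-15441976) ran from 7.83 to 12.3 CPM in the TAAR5-KO libraries and from 6.61 to 13.8 CPM in the WT libraries. The groups overlapped along nearly their whole range. On the log2 scale Foxp2 differed by 0.12 ± 0.15 (SE), with an adjusted p of 0.816 in the likelihood ratio test of edgeR, and it lay below 0 when NK11 and NK12 were left out (-0.053), and when NK10 was left out as well (-0.074). The ratio of Foxp1 to Foxp2 within a library, which does not depend on scaling, had a mean log2 of 1.98 ± 0.23 in TAAR5-KO and 1.75 ± 0.32 in WT libraries, and the difference of 0.24 had an adjusted p of 0.515 over 3 ratios (exact permutation test, two-sided).

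Bcl11b, also called Ctip2, is a zinc finger factor that spiny neurons need to mature, and it is shared with deep layer projection neurons of the cortex. Bcl11b (GRCm39 chr12:107876662-107969861) ran from 38.96 to 53.9 CPM in the TAAR5-KO libraries and from 25.8 to 43.2 CPM in the WT libraries. The upper 4 of the TAAR5-KO libraries lay above every WT library, and the lowest WT value was that of NK11. Meis2 is a homeodomain factor that binds DNA together with Pbx proteins. Meis2 (GRCm39 chr2:115693545-115896320) ran from 59.4 to 72.2 CPM in the TAAR5-KO libraries and from 36.8 to 64.2 CPM in the WT libraries. Again 4 TAAR5-KO libraries lay above every WT library and NK11 was lowest. The log2 fold change was 0.26 ± 0.12 (SE) for Bcl11b and 0.27 ± 0.13 for Meis2, with adjusted p of 0.358 and 0.377 in the likelihood ratio test of edgeR. Without NK11 and NK12 the values were 0.14 and 0.11, and without NK10 as well they were 0.12 and 0.031. Summed markers of cortical pyramidal neurons, which share Bcl11b, ran from 26.2 to 95.6 CPM in the TAAR5-KO and from 31.8 to 105.0 CPM in the WT libraries and overlapped along most of that range.

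Rarb, the retinoic acid receptor beta, binds DNA with a retinoid X receptor and is itself a retinoic acid target through the kind of repeat in capitals in its window above. Rarb (GRCm39 chr14:5650540-6038924) ran from 1.88 to 3.41 CPM in the TAAR5-KO libraries, with a median of 2.44. In the WT libraries it ran from 1.57 to 3.02 CPM, with a median of 1.85. All 6 TAAR5-KO libraries lay above the WT median, while 1 WT library, NK10, was higher than all but 1 of them. On the log2 scale Rarb differed by 0.34 ± 0.17 (SE), with an adjusted p of 0.418 in the likelihood ratio test of edgeR. Without NK10, NK11 and NK12 the Rarb difference was larger, 0.43 (adjusted p = 0.729, same test). Rarb is uncertain, because 34.1% of its exon bases overlap exons of Top2b on the opposite strand, Top2b had up to 1248 counts in a library against up to 87 for Rarb, and the strand setting of the counting is not given in the sources used here.

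Isl1 and Ebf1 are factors of the direct pathway side, a LIM homeodomain factor also found in cholinergic interneurons and an early B-cell factor, and Zfp521 is a zinc finger protein known to bind Ebf1. Isl1 (GRCm39 chr13:116434817-116446225) ran from 1.07 to 3.29 CPM in the TAAR5-KO and from 0.740 to 2.19 CPM in the WT libraries. Ebf1 (GRCm39 chr11:44508144-44898918) ran from 2.66 to 4.22 CPM in the TAAR5-KO and from 2.35 to 4.16 CPM in the WT libraries. For both genes the groups overlapped, with 1 TAAR5-KO library above every WT library. The log2 fold change was 0.37 ± 0.27 (SE) for Isl1 and 0.28 ± 0.17 for Ebf1, with adjusted p of 0.623 and 0.535 in the likelihood ratio test of edgeR. The counts behind them were small, 16 to 56 per library for Isl1 and 20 to 104 for Ebf1, and Isl1 had the widest spread of the 10, with a coefficient of variation of 37.2% over the 12 libraries. Without NK10, NK11 and NK12 the values were 0.15 for Isl1 and 0.050 for Ebf1. Summed markers of cholinergic interneurons ran from 3.24 to 9.18 CPM in the TAAR5-KO and from 4.81 to 11.3 CPM in the WT libraries. Zfp521 ran from 3.73 to 6.14 CPM in the TAAR5-KO and from 4.16 to 7.01 CPM in the WT libraries, and its log2 fold change, -0.094 ± 0.15 (SE), had an adjusted p of 0.867 in the same test. Without NK10, NK11 and NK12 the Zfp521 value lay farther below 0, at -0.24 (adjusted p = 0.866, same test).

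Sp9 is a zinc finger factor of the Sp family, known for its role in the making of indirect pathway neurons. Sp9 (GRCm39 chr2:73102269-73115050) ran from 2.03 to 3.52 CPM in the TAAR5-KO libraries and from 1.81 to 3.51 CPM in the WT libraries. The ranges were nearly the same, and the log2 fold change, 0.13 ± 0.16 (SE), had an adjusted p of 0.808 in the likelihood ratio test of edgeR. It was -0.0077 without NK10, NK11 and NK12. Ratios of direct to indirect pathway factors within a library were also compared. The log2 ratio of Isl1 to Sp9 was higher by 0.20 in the TAAR5-KO libraries (adjusted p = 0.515, exact permutation test) and that of Ebf1 to Sp9 by 0.15 (adjusted p = 0.515, exact permutation test). Leaving out NK11 took the difference for Isl1 to Sp9 to -0.0049.

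Tshz1, a teashirt zinc finger factor known in the development of spiny neurons and olfactory bulb interneurons, lay on the other side. It ran from 7.02 to 10.1 CPM in the TAAR5-KO libraries, with a median of 8.39, and from 8.18 to 11.8 CPM in the WT libraries, with a median of 9.99. Only 1 TAAR5-KO library, NK4, was above the WT median, and 3 WT libraries were above every TAAR5-KO library. On the log2 scale Tshz1 differed by -0.22 ± 0.11 (SE), with an adjusted p of 0.409 in the likelihood ratio test of edgeR. It stayed below 0 in all 12 fits that left out 1 library, from -0.28 to -0.16. Without NK10, NK11 and NK12 it was -0.20 (adjusted p = 0.822, same test).

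**Figure D3:**
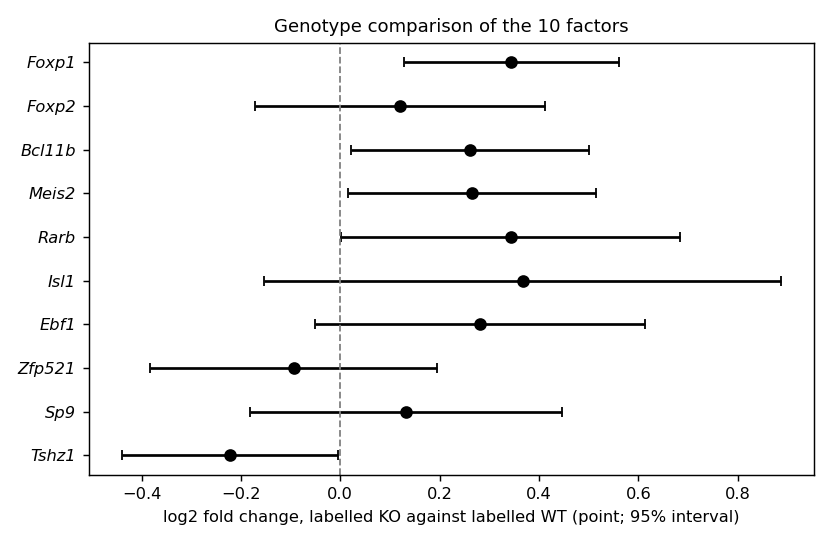
Log2 fold change of the 10 factors in TAAR5-KO against WT libraries (points) with 95% intervals (bars). The points of 8 factors lie above 0, from 0.12 for Foxp2 to 0.37 for Isl1, and those of Zfp521 (-0.094) and Tshz1 (-0.22) lie below; only the intervals of Foxp1, Bcl11b, Meis2, Rarb and Tshz1 leave out 0.

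All directions are relative to the bulk of other genes. When TMM was left out and library size alone was used, all features had a median of -0.49 on the log2 scale, and the 8 factors above 0 took values from -0.36 for Foxp2 to -0.17 for Isl1, each less far below 0 than that median. In a tissue sample, fewer cells of a type and less RNA per cell cannot be told apart. The summed level of 7 markers shared by spiny neurons, all 7 of which were tested, ran from 313.7 to 409.9 CPM in the TAAR5-KO and from 191.4 to 345.1 CPM in the WT libraries (adjusted p = 0.0779 over 12 marker lists, exact permutation test). Summed markers of direct and indirect pathway neurons had adjusted p of 0.0866 and 0.0779 in the same exact permutation test, on the higher side in the TAAR5-KO libraries. Summed astrocyte markers ran from 130.3 to 172.4 CPM in the TAAR5-KO and from 182.7 to 203.9 CPM in the WT libraries, with no overlap (adjusted p = 0.026, exact permutation test). Summed oligodendrocyte and microglia markers were also on the lower side in the TAAR5-KO libraries, with means of 626.5 against 709.9 CPM and 19.8 against 24.6 CPM (adjusted p = 0.0779 and 0.0649, exact permutation test). Of the 12 lists, 6 had an adjusted p under 0.1, against 2 without NK11 and 0 with library sizes outside ribosomal RNA in place of TMM. Their part in the values of the 10 factors was not tested.

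Each factor was also set against the summed spiny neuron markers in the same library, a measure chosen after the values were seen and computed for all 10. The mean log2 of that sum was itself 0.28 higher in the TAAR5-KO libraries. The ratio of Foxp1 to the sum differed by 0.086 on the log2 scale (p = 0.528, exact permutation test), and its groups overlapped. For Bcl11b and Meis2 the differences were -0.0032 and 0.012. For Tshz1 the log2 ratio ran from -5.57 to -5.26 in the TAAR5-KO libraries and from -5.22 to -4.55 in the WT libraries. The Tshz1 groups did not overlap, and the difference of -0.50 had p = 0.00216, the smallest that the exact permutation test of these libraries can give, before any allowance for the 10 factors compared. The Tshz1 difference ran from -0.56 to -0.42 when 1 library was left out, the latter without NK11. For Zfp521 the difference was -0.40 (p = 0.00433, exact permutation test), and the remaining 5 factors differed by -0.15 to 0.073. Because the sum was higher in the TAAR5-KO libraries, a feature with no difference in CPM would also lie below 0 on this measure. No share of all features without overlap is given for this measure, so how common such a separation is remains unknown.

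**Figure D4:**
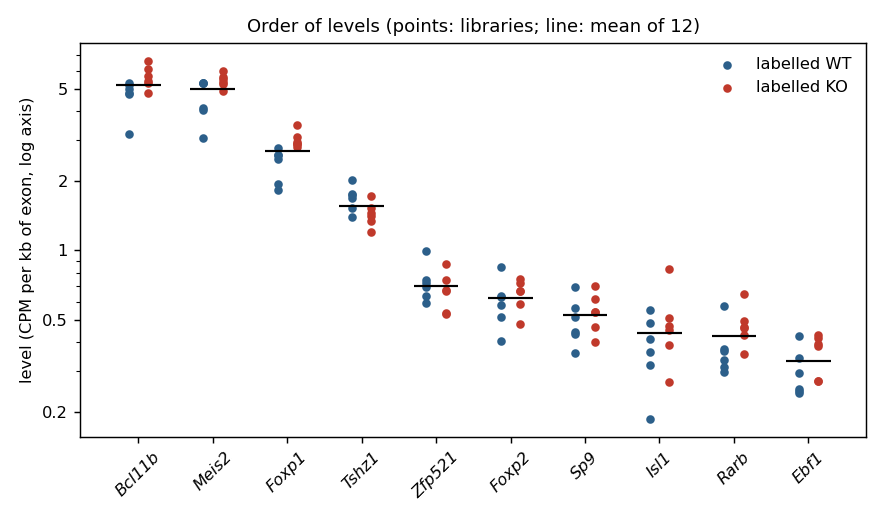
Level of each factor in CPM per kb of exon (log axis) in the 12 libraries, coloured by label, with the mean of the 12 as a line. Bcl11b (5.19) and Meis2 (4.99) lead, Foxp1 (2.695) and Tshz1 (1.56) follow, and the other 6 lie between 0.33 and 0.70.

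Per kb of exon, the mean levels were ordered from Bcl11b to Ebf1. Bcl11b had a mean of 5.19 ± 0.85 CPM per kb (SD, n = 12), followed by Meis2 with 4.99 ± 0.83, Foxp1 with 2.695 ± 0.46 and Tshz1 with 1.56 ± 0.22. Zfp521 (0.70 ± 0.13), Foxp2 (0.62 ± 0.12), Sp9 (0.52 ± 0.11), Isl1 (0.44 ± 0.16), Rarb (0.43 ± 0.11) and Ebf1 (0.33 ± 0.076) made up the lower end. The divisor is the length of all annotated exons merged, fixed for each gene, and the order depends on it. Without it, Foxp2 had means of 10.6 (TAAR5-KO) and 9.82 CPM (WT), against 8.44 and 9.85 CPM for Tshz1. Neighbours in this order differed within libraries for 6 of 9 pairs at an adjusted p under 0.05 (exact sign-flip permutation test). The test measures the spread between libraries and not error in the length, and the level of Rarb is uncertain because of Top2b. The exceptions were Bcl11b and Meis2 (adjusted p = 0.177), Zfp521 and Foxp2 (0.0772) and Isl1 and Rarb (0.923) in the same exact test. Bcl11b was above Meis2 in 7 of 12 libraries, Zfp521 above Foxp2 in 9 and Isl1 above Rarb in 5. In counts within a library, the geometric mean ratio of Foxp1 to Foxp2 was 3.95 in TAAR5-KO and 3.35 in WT libraries.

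Correlations between the factors across the 12 libraries are given as a description on the TMM scale. No share over pairs of other features is given beside them. Of the 45 pairs, 38 had a Pearson's r above 0, with a median of 0.42, and 7 had an adjusted p under 0.05 (permutation test over libraries, adjusted over the 45 pairs). Bcl11b and Meis2 had r = 0.88 and rho = 0.83 (adjusted permutation p = 0.0075 and 0.0286), with r = 0.46 within the TAAR5-KO and 0.92 within the WT libraries. Foxp2 and Isl1 had r = 0.87 and rho = 0.81 (adjusted permutation p = 0.0075 and 0.0339), with r = 0.76 and 0.95 within the genotypes. Meis2 and Ebf1 had r = 0.73 and rho = 0.83 (adjusted permutation p = 0.00754 and 0.0286), with r = 0.73 within each genotype. After the 2 libraries farthest from the median of the first gene were left out, r was 0.79, 0.80 and 0.73 for these 3 pairs. Foxp1 and Meis2 were different, since their r of 0.78 was 0.27 without such libraries and -0.29 within the TAAR5-KO libraries. Tshz1 had an r below 0 with 4 factors, the lowest with Foxp1 (-0.41), but within the genotypes the r of Foxp1 and Tshz1 was 0.0080 in TAAR5-KO and -0.0023 in WT libraries, and that of Meis2 and Tshz1 was 0.84 and 0.28. With library size as the scaling all 45 pairs passed. For deviations from the genotype means, which take out the difference between the groups, 1 pair passed.

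**Figure D5:**
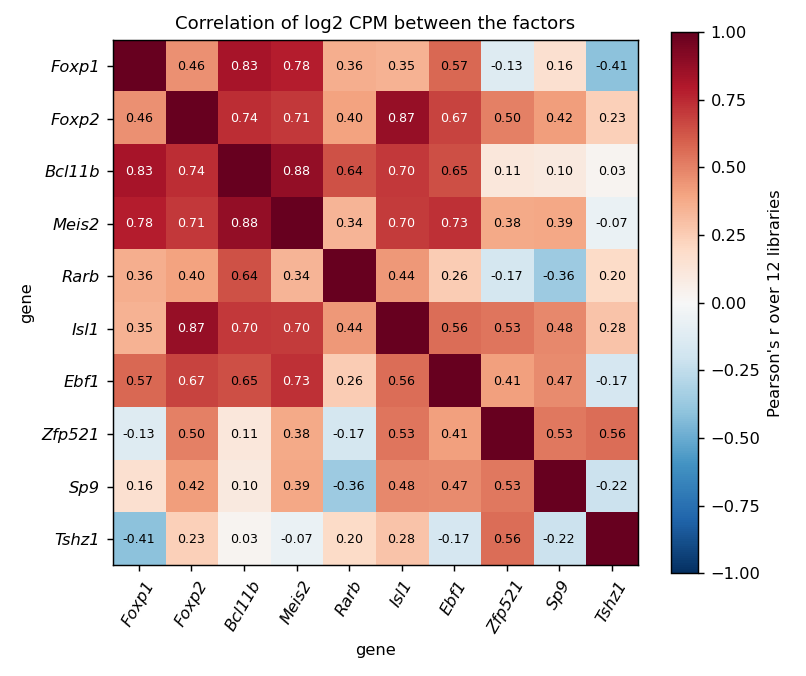
Pearson's r of log2 CPM over the 12 libraries for each pair of the 10 factors (rows and columns), from blue (negative) to red (positive). Off the diagonal, the darkest red cells are Bcl11b with Meis2 (0.88) and Foxp2 with Isl1 (0.87), Foxp1 is paler with Foxp2 (0.46) and Isl1 (0.35), and the darkest blue cell is Foxp1 with Tshz1 (-0.41).

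Among 4547 other protein-coding genes of at least 5 CPM, the closest to each factor over the 12 libraries are given as a description. They share libraries, scaling and NK11, so r without NK11 is given second. Closest to Foxp1 was Kcnt1, a sodium-activated potassium channel (r = 0.95, and 0.94 without NK11), followed by Plk2 (0.92 and 0.88). Bcl11b went with 2 phosphodiesterases, Pde10a, an abundant enzyme of spiny neurons (0.95 and 0.85), and Pde7b (0.95 and 0.85). Meis2 went with Strn (0.94 and 0.84) and Foxo1 (0.94 and 0.87), and Foxp2 with Hs6st2 (0.93 and 0.89) and Galnt13 (0.93 and 0.88). Galnt13 was also closest to Isl1 (0.93 and 0.88), ahead of Id4 (0.92 and 0.88). Zfp521 was closest to Six3, a homeobox factor of the indirect pathway lineage (0.94 and 0.95), and then Dnajc3 (0.89 and 0.89). The remaining first places were Klhl13 for Ebf1 (0.85 and 0.83), Ppm1b for Rarb (0.90 and 0.89), Xpo1 for Sp9 (0.89 and 0.92) and Ndufb5 for Tshz1 (0.86 and 0.85). The second places were Hnrnpk (0.84 and 0.85), Tmed7 (0.87 and 0.83), Cacul1 (0.87 and 0.87) and Rps3 (0.86 and 0.88), in the same order. Of these genes Kcnt1 was called between genotypes, as were 1.65% of all features, with a log2 fold change of 0.39 (adjusted p = 0.0394, likelihood ratio test of edgeR). Foxp1 itself was not called. Kcnt1 was picked for its r with Foxp1 over the same libraries, in which Foxp1 did not overlap between the groups, so its call carries no support of its own.

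Relatives and binding partners of the 10 factors were read from a list of 20 genes, of which 18 were tested. None was called, against 1.65% of all features. At an unadjusted p under 0.05 none was higher (6.38% of all features) and 4 were lower (5.54%) in the TAAR5-KO libraries, with a median log2 fold change of -0.11 over the list. Among those of highest level per kb were the retinoid X receptor Rxrg (1.63 CPM per kb) and the Meis2 partner Pbx3 (1.30), with log2 fold changes of 0.31 and 0.091. The 4 lower ones, named after their values were seen, were Foxp4 (-0.45), Tshz2 (-0.47), Zfp423 (-0.48) and Rxra (-0.31), with adjusted p from 0.169 to 0.231 in the likelihood ratio test of edgeR. They are relatives of Foxp1, Tshz1 and Zfp521 and a partner of Rarb, in that order. Rxra ran from 2.48 to 3.23 CPM in the TAAR5-KO and from 3.24 to 3.94 CPM in the WT libraries, so all TAAR5-KO libraries lay just below all WT libraries, as they did for 0.388% of all features. A second list held 15 other factors of the lateral ganglionic eminence and spiny neuron lineage, of which 13 were tested and none was called, against the same 1.65%. The 3 of highest level were Mef2c (5.05 CPM per kb), Zeb2 (2.47) and Sox4 (1.28), with log2 fold changes of 0.15, 0.052 and -0.15. The untested genes Ebf2, Isl2, Gsx1 and Gsx2 had at most 11, 2, 3 and 2 counts in a library.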

How the data were processed

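The authors isolated total RNA, depleted ribosomal RNA, prepared strand-preserving libraries and read them from a single end. Reads were trimmed with Cutadapt 4.1, aligned with STAR 2.7.11b to GRCm39 and assigned to GENCODE M35 genes by featureCounts 2.0.6. They deposited raw counts per gene without normalization, together with exon lengths. The strand setting and the handling of shared reads are not given in the sources used here. A further 12 columns of counts were not used.

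Features with at least 0.5 CPM in at least 3 libraries were kept. Genotypes were compared with edgeR 4.0.16 (R 4.3.3; TMM, estimateDisp, glmFit and glmLRT, the test of the paper, no covariate), with a Benjamini–Hochberg adjusted threshold of 0.1, and the fit was tested on simulated data. Alternatives included edgeR's quasi-likelihood test and DESeq2 1.42.0, other scalings and filters, and leaving out each library. DESeq2 gave no adjusted p for 7009 features. Single values were tested by exact permutation of the labels, and correlations with 100000 permutations of log2 CPM (prior count 2). Ratios between factors had 0.5 counts added. Intervals are at the 95% level. Total counts were 11269915 to 34824450 per library. The 1819907 to 6399188 counts outside ribosomal RNA set the precision, and the 10 factors had 15 to 2273 counts in a library.

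The factors, gene lists and tests were chosen with earlier results of these data known. Named were all 10 factors, called genes and the 3 of highest level per kb of the lists of relatives and lineage factors, and the 2 genes of highest r with each factor, with exceptions stated; some genes of the lists are not reported here. Biotypes came from GENCODE M39. The library number (NK1 to NK12) stands in the column names.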

Additional observations from a re-analysis of the deposited data

Results flagged for a closer look

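Of 50 groups of 6 library values examined, 9 had 1 library set apart from the others. Chance gives about 1 group in 20, but the groups share the same libraries and are not independent, so the 2 rates cannot be compared directly. NK11, labelled WT, accounted for 5 of the 9. It was far below the other WT libraries for Bcl11b (25.8 CPM) and for the summed markers of direct pathway neurons (20.3 CPM), indirect pathway neurons (63.9 CPM) and spiny neurons at large (191.4 CPM), and far above them for summed pituitary markers (56.1 CPM). Pituitary markers were also set apart in NK5, labelled TAAR5-KO (5.80 CPM). Within the WT libraries, Rarb was far above the rest in NK10 (3.02 CPM), Zfp521 was far above the rest in NK9 (7.01 CPM), and summed oligodendrocyte markers were far below the rest in NK12 (592.5 CPM). Of the 6 pituitary genes, Cga had at most 1 count in a library and Lhb had none. Of the mural cell genes, Higd1b had at most 2 counts.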

How the results depend on the processing

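No paired analysis was possible because the columns carry library numbers that no label ties to an animal, litter or replicate. None of the 10 factors was called in the main comparison, and 0 to 1 when 1 library was left out. With RLE size factors, filterByExpr, the CPM filter on TMM library sizes and DESeq2, 1 (Foxp1) was called. All features called under those settings numbered 227, 215, 234 and 177, in that order, against 229 in the main comparison. All features called numbered 229, against 63 with the quasi-likelihood test, 7 with library size only, 93 without a filter beyond 1 count, 98 with the ribosomal RNA share as a covariate, 83 after removal of the GC trend, 108 at an adjusted p under 0.05, 52 without NK11 and NK12, 15 without NK10, NK11 and NK12, 35 with ribosomal RNA features removed and library size only, and 85 (without NK11) to 415 (without NK4) when 1 library was left out. The 3 settings named before the leave-one-out range were chosen after seeing the data. Of 260 recomputed log2 fold changes of the factors, 238 kept their direction and call, 8 became calls (all Foxp1) and 14 changed direction. With library size only the values were -0.21 for Foxp1, -0.36 for Foxp2, -0.30 for Bcl11b, -0.22 for Meis2, -0.19 for Ebf1, -0.19 for Rarb, -0.17 for Isl1 and -0.31 for Sp9. Foxp2 was also below 0 after removal of the GC trend (-0.046), without NK11 and NK12 (-0.053), and with ribosomal RNA features removed and library size only (-0.028), a setting in which Sp9 was at -0.025. Without NK10, NK11 and NK12, Foxp2 was at -0.074 and Sp9 at -0.0077. The cause was not tested. Among the related factors, 0 were called and 0 to 1 when 1 library was left out: Zfp423 without NK4 or NK5, Foxp4 without NK8 and Ebf3 without NK12. All features called in those fits numbered 415, 291, 226 and 136, in that order. Neighbours in the order of levels differed for 6 pairs and for 3 (without NK9) to 7 when 1 library was left out. The difference in the ratio of Isl1 to Sp9 ran from -0.0049 (without NK11) to 0.37 (without NK10). Pairs of factors that correlated numbered 7, against 45 with library size only and 1 for deviations from the genotype means. Marker lists with an adjusted p under 0.1 numbered 6, against 0 with library sizes outside ribosomal RNA in place of TMM (chosen after seeing the data), and ran from 1 (without NK2, NK3 or NK5) to 8 (without NK9). Counts of 15 to 104 per library limit what can be detected for Rarb, Isl1, Ebf1 and Sp9.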
